A study of Homo sapiens with 6 samples.

Results

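The genes described here are 34 genes by which fibroblasts hold on to matrix and build basement membrane. They comprise 12 integrin α subunits, 8 integrin β subunits, 5 laminin α chains, 3 laminin β chains, 2 laminin γ chains and 4 genes for basement membrane linkers. They were chosen by symbol, from what their products do, and with earlier results of these data known. All 34 were found among the 25368 gene symbols of both expression tables. Of the 34, 24 had a mean of at least 1 FPKM (fragments scaled by transcript length and by the size of the library) over the 3 libraries of a table, and the same 24 did so in both tables.

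The RNA-seq data came from MRC5, a line of human embryonic lung fibroblasts that was immortalised with hTERT. In the first table, MRC5 had been infected for 2 h with adenovirus and then cultured for 3 days. The virus carried an empty vector (control), FLAG-tagged wild-type JUN (JUN WT), or FLAG-tagged JUN with both of its JNK phosphorylation sites changed to alanine (JUN AA), so all 3 libraries share the infection. The second table, called the JNKi table, holds MRC5 without treatment, MRC5 after 7 days in conditioned medium of MDA-MB-231 breast cancer cells (induced CAFs, iCAFs), and iCAFs that were also given 1 µM of the JNK inhibitor JNK-IN-8 for 48 h (iCAFs+JNKi), with DMSO as the vehicle. The conditioned medium had been collected without serum, and whether serum was added back is not given in the sources used here, so the cancer cell products and a change of serum cannot be told apart. Each condition has 1 library. Replicate error is therefore unknown for every difference below, and p-values were not computed. Both JUN libraries are compared with the same control library, so a shift shared by both is no separate observation in each. The iCAFs library enters both comparisons of the second table, and an error in it would move them in opposite directions. Values were compared only within a table, because the tables were normalised separately.

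JUN itself was at 25.5 FPKM with the empty vector, 4543 with JUN WT and 291 with JUN AA. The level of JUN mRNA and the phosphorylation sites therefore cannot be told apart in the comparison of JUN WT with JUN AA. In the JNKi table JUN was at 57.1 FPKM for MRC5, 55.3 for iCAFs and 21.1 for iCAFs+JNKi. The log2 difference with JNKi was -1.35, so the level of JUN mRNA and its phosphorylation cannot be told apart there either. All 10 fibroblast markers checked were above 1 FPKM in all 6 libraries, but their levels moved along the comparisons. In JUN WT against the control 3 of them (COL1A1, LUM and PDGFRB) were 2-fold lower, and in JUN AA COL3A1, COL6A1 and PDGFRB were 2-fold lower and LUM 2-fold higher. DCN and S100A4 were 2-fold lower in iCAFs than in MRC5, and COL1A1, COL3A1, DCN, LUM and PDGFRB were 2-fold higher with JNKi than in iCAFs. The 6 endothelial markers summed to between 0.249 and 0.628 FPKM, with CDH5 listed at 0 throughout. The 8 epithelial markers summed to between 19.7 and 56.2 FPKM, nearly all of it from KRT8 and KRT18, and CDH1, KRT5 and ESRP1 were listed at 0 in all libraries. Against the control, JUN WT had 2-fold less KRT8 and KRT18 mRNA, and JUN AA 2-fold less KRT18. The 8 leukocyte markers summed to at most 87.8 FPKM, nearly all of it from CD68, which is also made outside leukocytes and was 2-fold higher in JUN WT (85.7 FPKM, beside 32.6 in the control). PTPRC, their defining marker, did not exceed 0.02 FPKM. LYZ went the other way in 1 library, at 0 FPKM in the control, 0.023 with JUN WT and 2.03 with JUN AA. It was listed at 0 across the second table. CORO1A lay between 0.41 and 1.47 FPKM. The 6 smooth muscle and pericyte markers summed to 224, 127 and 122 FPKM across the first table (control first, JUN AA last) and to 108, 87.0 and 176 FPKM across the second (MRC5 first, iCAFs+JNKi last). Most of it came from CNN1, NOTCH3, CSPG4 and RGS5. NOTCH3 and RGS5 were 2-fold lower in both JUN libraries than in the control, and RGS5 was at 5.81 FPKM in iCAFs and 68.9 with JNKi. The part of all these markers in the results below was not tested, and in RNA from whole cultures fewer cells of a type and less RNA per cell cannot be told apart.

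Integrins are receptors made of an α and a β subunit that span the cell membrane and link matrix outside the cell to actin inside it. The α subunit largely decides the ligand. One set binds collagens, another binds laminins, and a further set binds the RGD tripeptide found in fibronectin and vitronectin. Laminins are cross-shaped trimers of an α, a β and a γ chain and form the sheet on which a basement membrane is built. Nidogens, perlecan and agrin tie that sheet to type IV collagen or to receptors. Fibroblasts in culture are held mainly by collagen and fibronectin receptors, and they also secrete basement membrane components.

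In JUN WT against the control, LAMB3 and LAMA1 were at least 2-fold higher, and LAMA5 and ITGA11 at least 2-fold lower. JUN AA against the control gave 6 lower members (ITGA11, ITGB5, LAMA5, NID1, NID2 and AGRN) and no higher one. In JUN WT against JUN AA, ITGA3, ITGA6, LAMA1, LAMA4 and LAMB3 were higher and none was lower. Between iCAFs and MRC5, ITGA1 was higher and ITGA6 lower. With JNKi, ITGA1, LAMA1, LAMA2 and LAMB1 were higher than in iCAFs, and ITGA6, ITGA7 and LAMB3 were lower. A difference is called 2-fold here when log2(FPKM + 1) differs by at least 1, so changes at low FPKM look smaller than they are.

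These counts stand beside the share of all genes past the same filter. Because the members were chosen with earlier results of these data known, a distance from that share is no independent finding. For JUN WT against the control, 2 of the 24 members were higher, where 6.92% of 10311 genes were, and 2 were lower, where 3.39% of genes were. For JUN AA against the control, 6 of 24 were lower, where 3.77% of genes were, and 0 were higher, where 5.29% of genes were. Comparing JUN WT with JUN AA, 5 of 24 were higher, where 6.65% of genes were, and 0 were lower, where 5.61% were. In iCAFs against MRC5, 1 of 24 was higher, where 1.94% of 11780 genes were, and 1 was lower, where 1.71% were. In iCAFs+JNKi against iCAFs, 4 of 24 were higher, where 2.25% of genes were, and 3 were lower, where 1.97% were. With JNKi, 7 of 24 members thus passed the threshold in either direction, where 4.22% of genes did. In the other comparisons this count was 4 of 24 for JUN WT and 6 of 24 for JUN AA against the control, where 10.3% and 9.06% of genes passed, 5 of 24 for JUN WT against JUN AA, where 12.3% passed, and 2 of 24 for iCAFs against MRC5, where 3.65% passed.

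**Figure D1:**
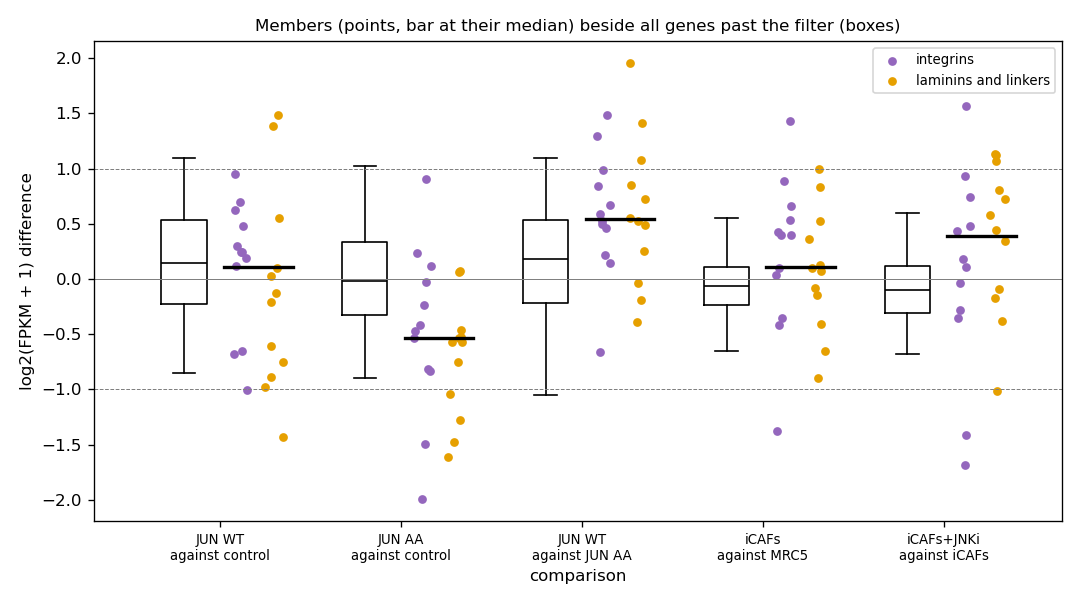
log2(FPKM + 1) differences (y axis) in the 5 comparisons (x axis), with boxes for all genes past the filter (quartiles, whiskers from the 5th to the 95th percentile) and points for the 24 members past it, integrins in purple and laminins and linkers in orange. Dashed lines mark 2-fold, and the black bar at the members' median lies at -0.53 in JUN AA against the control and at 0.39 in iCAFs+JNKi against iCAFs.

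The middle of the set also lay apart from that of all genes in some comparisons. The median log2 difference of the 24 members was -0.53 in JUN AA against the control, beside -0.015 for all genes, and 19 of the 24 were below 0. With JUN WT against the control the medians were 0.11 for the members and 0.15 for all genes, so the middle of the set lay close to that of the transcriptome. Between JUN WT and JUN AA they were 0.54 and 0.18, with 20 of 24 members above 0. This comparison shares its libraries with the other JUN comparisons and is no separate evidence. In iCAFs against MRC5 the medians were 0.11 and -0.061, and in iCAFs+JNKi against iCAFs they were 0.39 and -0.099, with 15 of 24 members above 0.

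**Figure D2:**
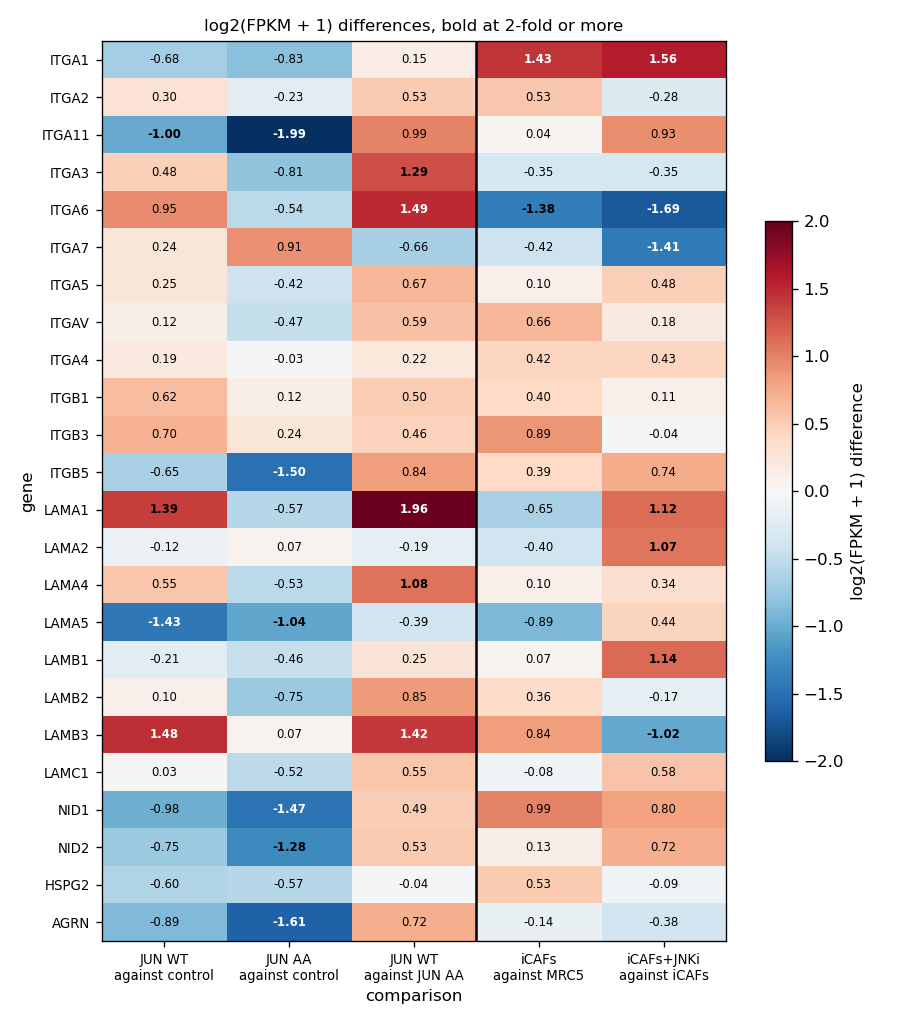
log2(FPKM + 1) differences of the 24 members past the filter (rows) in the 5 comparisons (columns), red for higher and blue for lower, with values of 1 or more in size in bold. The linkers at the bottom are blue in both comparisons with the control, and the laminin-binding subunits ITGA3, ITGA6 and ITGA7 are blue in both comparisons of the second table.

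LAMB3, which encodes a laminin β chain known from the basement membrane of skin, had the largest difference of any member in JUN WT against the control. It was at 0.545 FPKM with the empty vector, 3.32 with JUN WT and 0.617 with JUN AA. The JUN WT library stood alone, 6.08 times the control by FPKM, and JUN AA was at the control's level. Against the control, the log2 difference was 1.48 for JUN WT and 0.066 for JUN AA. LAMB3 passed the filter in this table only through its JUN WT value. In the second table LAMB3 was at 6.62 FPKM for MRC5, 12.6 for iCAFs and 5.72 for iCAFs+JNKi. It was thus highest in iCAFs, and with JNKi it was slightly below MRC5. The log2 difference was 0.84 in iCAFs against MRC5, short of 2-fold, and -1.02 in iCAFs+JNKi against iCAFs, just past it. That last call was lost, at -0.92, when changes were centred on the median gene, and also with rescaled FPKM (-0.97) and with GC and length trends removed (-0.93). LAMB3 lies on chromosome 1 of GRCh37 from 209788215 to 209825770, on the minus strand.

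LAMA1, the α chain of the laminin of the early embryo, was the other member 2-fold higher in JUN WT. It was at 0.743 FPKM with the empty vector, 3.55 with JUN WT and 0.173 with JUN AA. JUN WT was again the high library, and JUN AA lay below the control. The log2 difference was 1.39 in JUN WT against the control and 1.96 in JUN WT against JUN AA, the largest of any member there. These sizes depend on the pseudocount: with 0.1 the difference of JUN WT from JUN AA was 3.74, and that of JUN AA from the control was -1.63 instead of -0.57. LAMA1 also passed the filter only through JUN WT. At a filter of 5 FPKM no member was 2-fold higher in JUN WT against the control, where 458 of 6054 genes were. In the second table LAMA1 was at 8.16 FPKM for MRC5, 4.83 for iCAFs and 11.7 for iCAFs+JNKi. Here it moved in the opposite direction to LAMB3, lowest in iCAFs and highest with JNKi, with a log2 difference of 1.12 in iCAFs+JNKi against iCAFs.

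**Figure D3:**
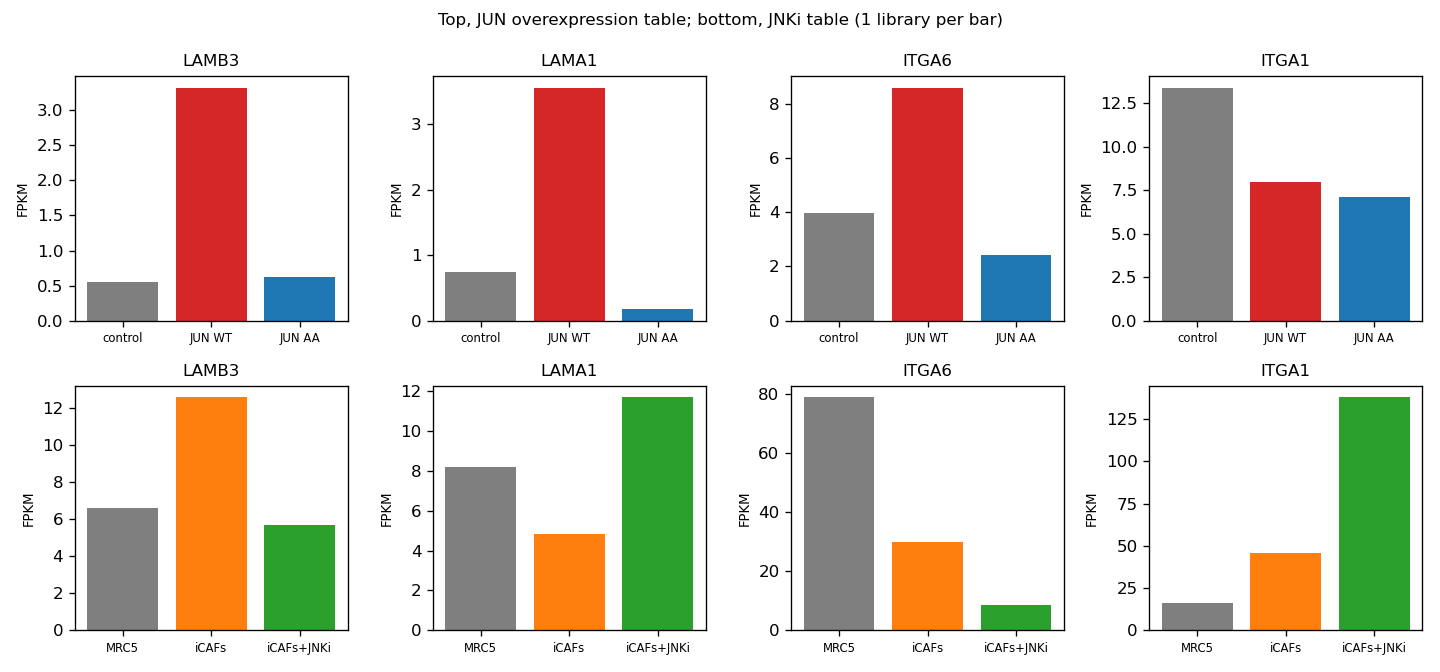
FPKM (y axis, from 0) of LAMB3, LAMA1, ITGA6 and ITGA1 in the 3 libraries of the JUN overexpression table (top) and of the JNKi table (bottom), 1 library per bar. LAMB3 and LAMA1 stand out in JUN WT at 3.32 and 3.55 FPKM, ITGA6 steps down from 79.0 to 29.8 to 8.57 FPKM in the bottom row, and ITGA1 steps up from 16.4 to 45.9 to 138 FPKM.

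JUN is a subunit of AP-1, which binds the heptamers TGACTCA and TGAGTCA. Promoter windows of 300 bases, from 250 before to 50 after an annotated start, were taken from RefSeq (GRCh38.p14) for 25 of the 34 members, with 32 windows in all. A heptamer was found on either strand in a window of 3 of these 25 genes (12%), LAMB3, ITGA5 and LAMA3, where 6.05% of 27305 genes have one. LAMA1, ITGA3, ITGA7, AGRN, ITGA9, ITGB2, ITGB3, ITGB4 and LAMC3 had no window and were not searched. The 3 windows with a heptamer are shown because they hold it, and those of ITGA11, ITGA1 and ITGA6 because these genes had the largest decrease of the first table and the largest increase and decrease of the second. Heptamers are in capitals, and each sequence reads 5′ to 3′ on the strand of the gene.
LAMB3, minus strand, chr1:209651325-209651624: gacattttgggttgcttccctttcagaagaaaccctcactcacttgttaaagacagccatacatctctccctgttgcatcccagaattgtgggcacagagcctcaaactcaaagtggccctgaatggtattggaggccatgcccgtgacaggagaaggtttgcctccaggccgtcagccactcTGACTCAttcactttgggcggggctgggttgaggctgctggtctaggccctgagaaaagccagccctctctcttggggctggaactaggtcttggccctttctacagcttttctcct
ITGA5, minus strand, chr12:54419217-54419516: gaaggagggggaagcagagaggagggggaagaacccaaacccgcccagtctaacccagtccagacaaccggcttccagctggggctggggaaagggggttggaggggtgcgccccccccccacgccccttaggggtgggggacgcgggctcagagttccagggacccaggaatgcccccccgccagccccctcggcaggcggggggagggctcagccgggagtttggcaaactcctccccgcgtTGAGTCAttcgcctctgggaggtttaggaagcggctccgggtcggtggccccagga
LAMA3, plus strand, chr18:23872770-23873069: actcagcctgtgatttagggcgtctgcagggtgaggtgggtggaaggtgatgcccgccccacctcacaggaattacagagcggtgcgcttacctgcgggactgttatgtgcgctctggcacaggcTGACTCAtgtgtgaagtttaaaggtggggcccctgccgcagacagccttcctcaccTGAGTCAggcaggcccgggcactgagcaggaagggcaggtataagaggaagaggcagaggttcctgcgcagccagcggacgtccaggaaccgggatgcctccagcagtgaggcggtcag
ITGA11, minus strand, chr15:68432114-68432413: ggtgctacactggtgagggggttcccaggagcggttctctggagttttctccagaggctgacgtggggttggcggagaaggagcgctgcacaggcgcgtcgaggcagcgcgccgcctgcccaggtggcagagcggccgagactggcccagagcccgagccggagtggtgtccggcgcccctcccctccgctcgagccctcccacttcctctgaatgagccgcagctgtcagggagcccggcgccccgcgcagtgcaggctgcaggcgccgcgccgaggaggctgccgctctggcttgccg
ITGA1, plus strand, chr5:52787666-52787965: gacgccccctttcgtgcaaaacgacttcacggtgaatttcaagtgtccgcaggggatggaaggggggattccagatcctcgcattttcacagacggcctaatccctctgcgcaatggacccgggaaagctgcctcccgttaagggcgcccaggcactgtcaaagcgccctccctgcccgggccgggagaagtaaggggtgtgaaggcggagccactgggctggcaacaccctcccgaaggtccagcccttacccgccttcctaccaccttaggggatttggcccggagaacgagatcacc
ITGA6, plus strand, chr2:172427086-172427385: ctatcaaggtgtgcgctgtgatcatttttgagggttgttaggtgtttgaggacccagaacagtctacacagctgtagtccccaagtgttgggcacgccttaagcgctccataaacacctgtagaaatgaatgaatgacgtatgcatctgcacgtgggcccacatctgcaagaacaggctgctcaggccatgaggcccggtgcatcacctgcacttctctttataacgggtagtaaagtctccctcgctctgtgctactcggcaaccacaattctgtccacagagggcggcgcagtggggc
In LAMB3 the heptamer begins 67 bases before this start, and the windows of its 2 other annotated starts hold none. In ITGA5 it begins 6 bases before the start, and in LAMA3 the 2 heptamers begin 125 and 69 bases before a start. ITGA6 has a second annotated start whose window, which overlaps the one shown, also holds none. The 3 genes with a heptamer did not share a pattern. LAMB3 was 2-fold higher in JUN WT, ITGA5 had a log2 difference of 0.25, and LAMA3 stayed under 0.6 FPKM in every library. A match is a description of these windows and says nothing of binding.

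The other laminin α chains differed among themselves. LAMA4, which encodes the α chain made by mesenchymal and endothelial cells, was the most abundant of them in all 6 libraries. It was at 21.4 FPKM with the empty vector, 31.7 with JUN WT and 14.5 with JUN AA, with JUN WT high and JUN AA low. The log2 difference of 1.08 in JUN WT against JUN AA was 0.90 with centred changes and 0.69 with GC and length trends removed. In the second table it was at 70.4 FPKM for MRC5, 75.6 for iCAFs and 96.0 for iCAFs+JNKi, with no 2-fold difference.

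LAMA5, the α chain of most adult epithelial and vascular basement membranes, was lower in both JUN libraries. It was at 11.95 FPKM with the empty vector, 3.81 with JUN WT and 5.30 with JUN AA. Neither JUN library came near the control, and the log2 differences were -1.43 and -1.04, both from the same control library. LAMA5 has a GC-rich transcript (66.4% in its canonical form, where the median of genes past the filter was 49.6%). With trends of GC content and length removed, the differences were -0.83 and -0.85, short of 2-fold. Its level was 13.9 FPKM for MRC5, 7.04 for iCAFs and 9.91 for iCAFs+JNKi.

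LAMA2, the laminin α chain of muscle, was near the limit of the filter. It lay between 1.82 and 2.22 FPKM in the first table, so the 3 libraries were alike. In the second it was at 2.39 FPKM for MRC5, 1.56 for iCAFs and 4.38 for iCAFs+JNKi, with a log2 difference of 1.07 with JNKi. All 4 laminin α chains past the filter were higher with JNKi than in iCAFs, with a median log2 difference of 0.76. LAMA1, LAMA2 and LAMA5 were lower in the same iCAFs library than in MRC5, at -0.65, -0.40 and -0.89. LAMA5 with JNKi stayed below MRC5, at 9.91 beside 13.9 FPKM.

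Of the β chains, LAMB1 and LAMB2 supplied nearly all the mRNA. LAMB1, the widespread β chain of embryonic and vascular basement membranes, was at 55.1 FPKM with the empty vector, 47.5 with JUN WT and 39.7 with JUN AA, a narrow range. It was at 104 FPKM for MRC5, 109 for iCAFs and 241 for iCAFs+JNKi. The JNKi library was the high one, with a log2 difference of 1.14 against iCAFs and of 0.072 between iCAFs and MRC5. LAMB2, the β chain of kidney and synaptic basement membranes, went the other way with JNKi, from 133 to 118 FPKM, after 104 FPKM in MRC5. In the first table LAMB2 was at 41.3, 44.3 and 24.2 FPKM, lowest in JUN AA. LAMB1 thus made up 42.8% of the summed FPKM of the 3 β chains in iCAFs and 66.0% in iCAFs+JNKi.

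LAMC1, the common γ chain, was the abundant one of the 2 γ chains considered here. Its 3 libraries of the first table were at 49.8 FPKM with the empty vector, 50.7 with JUN WT and 34.3 with JUN AA. In the second table it was at 126 FPKM for MRC5, 119 for iCAFs and 178 for iCAFs+JNKi, a log2 difference of 0.58 with JNKi. No comparison of LAMC1 reached 2-fold. LAMC3 did not exceed 0.05 FPKM.

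The 4 linker genes were all lower in both JUN libraries than in the control, with medians of -0.82 in JUN WT and -1.38 in JUN AA. Both medians rest on the same control library, so a high control library and a decrease in both JUN libraries cannot be told apart. NID1 and NID2 encode the nidogens, which bridge laminin and type IV collagen. NID1 was at 24.3 FPKM with the empty vector, 11.8 with JUN WT and 8.13 with JUN AA. Its log2 differences were -0.98 and -1.47, the first just short of 2-fold and past it, at -1.13, with changes centred on the median gene. NID2 was at 43.5, 25.4 and 17.3 FPKM in the same libraries, with log2 differences of -0.75 and -1.28. That of JUN AA was -0.98 with GC and length trends removed.

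AGRN encodes agrin, a heparan sulfate proteoglycan that binds laminin and, at the synapse, gathers acetylcholine receptors. It was the most abundant linker of the first table, at 150 FPKM with the empty vector, 80.5 with JUN WT and 48.3 with JUN AA. JUN AA was at 0.323 times the control by FPKM, with a log2 difference of -1.61. AGRN has the transcript with the highest GC content of the 34 members, 67.6%, and with GC and length trends removed its log2 difference was -1.43 in JUN AA and -0.38 in JUN WT, the latter after -0.89 as deposited. HSPG2, which encodes perlecan, was at 24.2, 15.6 and 16.0 FPKM, so the JUN libraries were alike and neither was 2-fold below the control.

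Across the JNKi libraries, the linkers split. NID1 was at 12.1 FPKM for MRC5, 25.02 for iCAFs and 44.4 for iCAFs+JNKi, higher at each step. Its log2 difference in iCAFs against MRC5 was 0.99, just short of 2-fold, and was 1.05 with centred changes. NID2 was at 55.0, 60.1 and 99.7 FPKM. AGRN had the opposite order, at 80.0, 72.4 and 55.6 FPKM. HSPG2 was at 49.7, 72.2 and 67.6 FPKM. Agrin made up 40.7% of the summed FPKM of the 4 linkers for MRC5, 31.5% for iCAFs and 20.8% with JNKi.

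**Figure D4:**
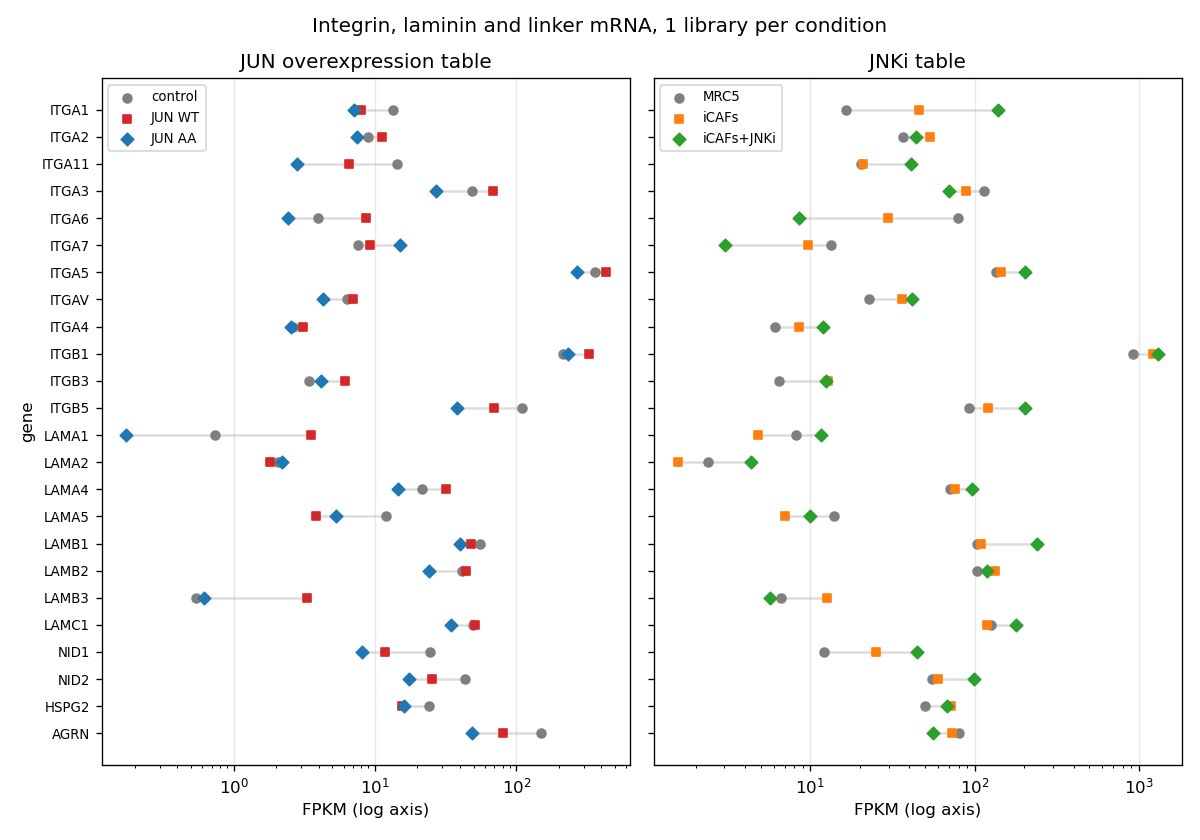
FPKM (log x axis) of the 24 members past the filter (y axis) in the JUN overexpression table (left) and the JNKi table (right), with 1 symbol per library. ITGB1 and ITGA5 lie farthest to the right on the left panel, and JUN AA is the lowest of the 3 symbols for most genes there.

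Of the collagen-binding α subunits, ITGA1 and ITGA11 changed most. ITGA1 encodes a receptor subunit for collagens that prefers type IV collagen. It was at 16.4 FPKM for MRC5, 45.9 for iCAFs and 138 for iCAFs+JNKi. It was thus higher at each step, with log2 differences of 1.43 and 1.56. JNKi did not bring ITGA1 back towards MRC5. ITGA1 was at 13.4 FPKM with the empty vector, 7.98 with JUN WT and 7.11 with JUN AA, lower in both JUN libraries by less than 2-fold. ITGA1, on chromosome 5 of GRCh37 from 52083750 to 52255039, shares exon bases with PELO on the same strand. PELO was at 26.4 FPKM for MRC5, 33.8 for iCAFs and 43.8 for iCAFs+JNKi, so its steps were smaller.

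ITGA11, the main receptor subunit for fibrillar collagen in fibroblasts, had the largest decrease of the first table. It was at 14.2 FPKM with the empty vector, 6.61 with JUN WT and 2.83 with JUN AA. JUN AA was the lowest, at 0.199 times the control by FPKM. The log2 differences were -1.003 in JUN WT, at the threshold, and -1.99 in JUN AA. The latter was -1.69 with GC and length trends removed. Between JUN WT and JUN AA it was 0.99, short of 2-fold. In the JNKi table ITGA11 was at 20.4 FPKM for MRC5, 20.9 for iCAFs and 40.8 for iCAFs+JNKi, alike in the first 2 and higher with JNKi. That log2 difference was 0.93 as deposited and 1.03 with centred changes. ITGA11 shares no exon bases with another annotated gene and lies on chromosome 15 from 68588870 to 68724502.

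ITGA2, a collagen receptor subunit known from platelets and epithelia, was steadier. It lay between 7.48 and 11.2 FPKM in the first table and between 36.6 and 53.5 FPKM in the second. None of its differences reached 2-fold. ITGA10, the collagen receptor subunit of cartilage, was below the filter in both tables, at up to 1.35 FPKM in MRC5.

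The 3 laminin-binding α subunits were all lower in iCAFs than in MRC5, and lower again with JNKi. ITGA6 encodes a laminin receptor subunit of epithelial and stem cells. It was at 79.0 FPKM for MRC5, 29.8 for iCAFs and 8.57 for iCAFs+JNKi. The log2 differences were -1.38 and -1.69, and ITGA6 with JNKi was at 0.287 times its FPKM in iCAFs. In the first table ITGA6 was at 3.95 FPKM with the empty vector, 8.58 with JUN WT and 2.42 with JUN AA. JUN WT was the high library here, with a log2 difference of 0.95 against the control, and of 1.49 against JUN AA. The former ranged from 0.61 with GC and length trends removed to 1.10 with a pseudocount of 0.1. ITGA6 lies on chromosome 2 from 173292082 to 173371187 and shares exon bases with antisense genes, and whether strand was used in counting is not given in the sources used here.

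ITGA7, the laminin receptor subunit of muscle, was lower with JNKi as well. It was at 13.3 FPKM for MRC5, 9.72 for iCAFs and 3.02 for iCAFs+JNKi, with a log2 difference of -1.41 with JNKi. In the first table the order was different, with 7.59 FPKM with the empty vector, 9.17 with JUN WT and 15.1 with JUN AA. ITGA7 was the member with the highest log2 difference in JUN AA against the control, at 0.91, and with GC and length trends removed it was 1.16. ITGA7 shares exon bases with BLOC1S1 and METTL7B on the other strand. BLOC1S1 had a log2 difference of 0.59 in JUN AA against the control and of -0.070 with JNKi, and METTL7B stayed under 0.5 FPKM.

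ITGA3, a laminin receptor subunit of epithelia, was the most abundant laminin-binding subunit in all 6 libraries. It was at 48.4 FPKM with the empty vector, 67.8 with JUN WT and 27.1 with JUN AA. JUN WT and JUN AA lay on opposite sides of the control, with a log2 difference of 1.29 between them. For the JNKi libraries, ITGA3 was at 114 FPKM for MRC5, 89.2 for iCAFs and 69.6 for iCAFs+JNKi, with steps of -0.35 each on the log2 scale.

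Among ITGA5, ITGAV and ITGA4, which bind RGD ligands or fibronectin and passed the filter, no comparison reached 2-fold. ITGA5, the fibronectin receptor subunit, was at 362 FPKM with the empty vector, 430 with JUN WT and 271 with JUN AA. It was by far the largest α subunit of that table. Across the JNKi libraries, it was at 135 FPKM for MRC5, 144 for iCAFs and 202 for iCAFs+JNKi. ITGAV, which pairs with several β subunits to bind vitronectin and latent TGF-β, lay between 4.27 and 6.94 FPKM in the first table and between 22.7 and 41.3 FPKM in the second. ITGA4, a receptor subunit for VCAM1 and fibronectin, lay between 2.55 and 3.12 FPKM and between 6.12 and 11.9 FPKM.

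**Figure D5:**
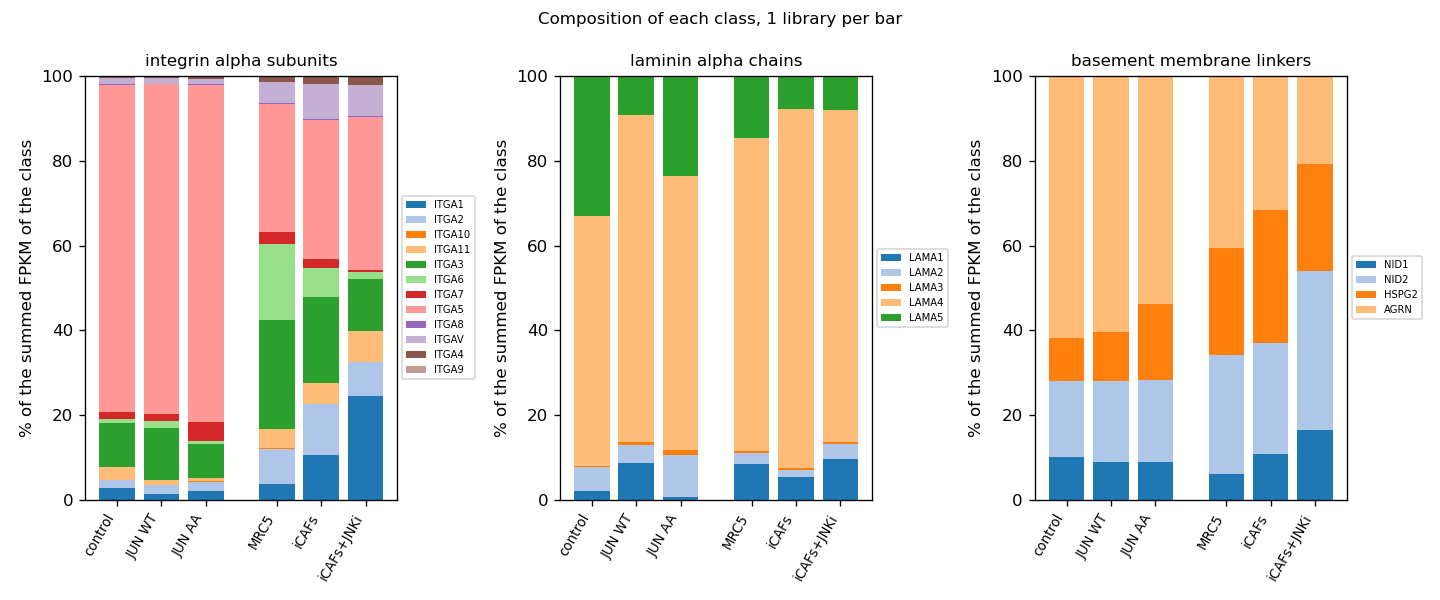
Share of the summed FPKM of a class (y axis, %) held by each gene, for integrin α subunits (left), laminin α chains (middle) and linkers (right), with 1 bar per library (x axis). ITGA5 takes 77.3% to 79.6% of the α subunits in the first 3 bars, and the share of ITGA1 widens from 3.70% to 24.6% over the last 3.

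As shares of all α subunit mRNA, these values give a different picture in each table. ITGA5 held 77.3% of the summed FPKM of the 12 α subunits with the empty vector, 77.9% with JUN WT and 79.6% with JUN AA. In the first table the makeup was thus nearly fixed by 1 gene. In the JNKi table ITGA5 held 30.3% for MRC5, 32.9% for iCAFs and 36.0% with JNKi. ITGA6 held 17.8%, 6.80% and 1.53% in the same order, and ITGA1 held 3.70%, 10.5% and 24.6%. ITGA6 thus exceeded ITGA1 in MRC5, and ITGA1 exceeded ITGA6 in iCAFs and with JNKi. Among the laminin α chains, LAMA4 held 58.9% with the empty vector, 77.1% with JUN WT and 64.7% with JUN AA, and LAMA5 held 33.0%, 9.26% and 23.7%.

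ITGB1, the β subunit shared by the collagen, laminin and fibronectin receptors, was the most abundant β subunit throughout. It was at 213 FPKM with the empty vector, 329 with JUN WT and 232 with JUN AA. It was at 921 FPKM for MRC5, 1212 for iCAFs and 1307 for iCAFs+JNKi. JUN WT and both iCAF libraries were the higher ones, and no difference reached 2-fold.

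ITGB5, which pairs with ITGAV to bind vitronectin, was lower in JUN AA. It was at 110 FPKM with the empty vector, 69.3 with JUN WT and 38.2 with JUN AA, a log2 difference of -1.50 in JUN AA and of -0.65 in JUN WT. The levels stepped down from the control to JUN WT to JUN AA, as for ITGA11, NID1, NID2 and AGRN. For the JNKi libraries, ITGB5 was at 92.1 FPKM for MRC5, 121 for iCAFs and 204 for iCAFs+JNKi, highest with JNKi but short of 2-fold. ITGB3, the other ITGAV partner past the filter, was at 3.40, 6.14 and 4.18 FPKM in the first table and at 6.48, 12.8 and 12.5 FPKM in the second. ITGB3 was higher in iCAFs than in MRC5, short of 2-fold at a log2 difference of 0.89, and differed by -0.039 with JNKi.

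The other 10 members did not pass the filter in either table. ITGB6, an epithelial subunit, was listed at 0 in all 6 libraries. ITGB2 and ITGB7, the subunits of leukocytes, and ITGB4, the partner of ITGA6 in hemidesmosomes, did not exceed 0.17 FPKM. LAMA3, LAMC3, ITGA9 and ITGB8 did not exceed 0.6 FPKM, apart from ITGB8 at 1.01 FPKM in MRC5 and up to 0.68 elsewhere. ITGA8, an RGD-binding subunit of mesenchyme, was at 0.053 FPKM for MRC5, 0.13 for iCAFs and 1.31 for iCAFs+JNKi, a log2 difference of 1.03 with JNKi at a level where the number of reads behind it is unknown.

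Genes around the set were taken from 4 further lists. These were also chosen with earlier results of these data known, so a distance from the share of all genes is no independent finding. Of the 14 integrin adaptors, 12 passed the filter in the first table and 13 in the second, and none was 2-fold changed against the control, in iCAFs or with JNKi. VCL, which encodes vinculin, was higher in JUN WT than in JUN AA, at 80.1 and 34.9 FPKM, with 58.7 FPKM in the control. Of the 6 integrin genes outside the set, only ITGAE exceeded 1 FPKM in any library. It was at 5.90 FPKM with the empty vector, 6.82 with JUN WT and 15.2 with JUN AA.

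Among the 10 integrin ligands that are not laminins, 7 passed the filter in the first table. TNC (tenascin C) and SPP1 (osteopontin) were 2-fold higher in JUN WT, and COL1A1 was 2-fold lower. In JUN AA, SPP1 was 2-fold higher and FN1 and COL3A1 were 2-fold lower. SPP1 was low, at 0.55 FPKM with the empty vector, 2.43 with JUN WT and 2.81 with JUN AA. It passed the filter only through the JUN libraries. Of all genes past the filter, 6.92% were higher and 3.39% lower in JUN WT, and 5.29% higher and 3.77% lower in JUN AA. FN1, which encodes fibronectin, the ligand of the abundant ITGA5 product, was at 531 FPKM with the empty vector, 555 with JUN WT and 262 with JUN AA. There were 6 past it in the JNKi table. TNC and THBS1 were 2-fold higher in iCAFs, and THBS1, COL1A1 and COL3A1 were 2-fold higher with JNKi than in iCAFs.

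Of the 9 other genes of basement membranes and laminin receptors, 8 passed the filter in both tables. In JUN WT 5 were 2-fold lower, COL15A1, COL4A2 and COL4A1 most, and in JUN AA 4 were, COL4A2 and COL4A1 most. Both counts rest on the same control library. Of all genes past the filter, 3.39% and 3.77% were 2-fold lower in these comparisons. COL4A2, a chain of type IV collagen, was at 329 FPKM with the empty vector, 115 with JUN WT and 76.9 with JUN AA. The nidogens, which bind it, had the same order of libraries. COL4A1 and COL4A2 were 2-fold higher in iCAFs than in MRC5 and 2-fold higher again with JNKi, with log2 differences of 1.61 and 1.58 for COL4A1. This is the order of ITGA1 and NID1 in that table. Of all genes past the filter, 1.94% were 2-fold higher in iCAFs than in MRC5, and 2.25% with JNKi than in iCAFs. DAG1, which encodes the laminin receptor dystroglycan, changed by less than 2-fold in every comparison.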

How the data were processed

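The authors mapped the RNA-seq reads of 6 MRC5 libraries to hg19 with hisat2 2.1.0 (default settings), and StringTie 2.1.1 gave the FPKM that the authors deposited for each gene (tools and versions also per the labels). The annotation, the strand setting and the number of reads are not given in the sources used here. FPKM are no counts, so no count model was used. Low FPKM values of the first table showed no common step between libraries (the most common ratio held at most 0.288% of genes under 0.5 FPKM), so depth and precision of single values are unknown. In the second table the most common ratio held between 1.62% and 2.13% of such genes, and depth was not derived from it. Columns were matched to the 6 conditions by sample title.

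Differences of log2(FPKM + 1) were taken within a table (Python 3.11.15, numpy 2.4.6, pandas 2.3.3) for genes whose mean over its 3 libraries reached 1 FPKM. Where a symbol had several rows, that of highest mean was used. A log2 difference of 1 counted as 2-fold. The procedure was run on simulated data, in which changes far past 2-fold were put in with a small spread set by hand. It recovers such changes by design, so it does not bear on differences near 2-fold or on replicate error. The members and lists were chosen with earlier results of these data known. Members past the filter with a 2-fold difference in any of the 5 comparisons are described in full, the others by level and range. PELO, BLOC1S1 and METTL7B were added because they share exon bases with members. Other genes do so too, among them ADRM1 with LAMA5, DLD with LAMB1 and RTRAF with NID2, each on the other strand. MIR4260 overlaps LAMB3 on the same strand. The part of such overlaps in the values was not tested. Promoters were printed for members with a heptamer or with the largest change from the reference library of a table.

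Gene positions and exon overlaps come from GRCh37 with GENCODE v44lift37, promoters from RefSeq (GRCh38.p14). A canonical transcript gave length and GC content for 91.1% (first table) and 90.4% (second table) of genes past the filter. Alternatives were a pseudocount of 0.1, no filter, a filter of 5 FPKM, libraries rescaled to an FPKM sum of 1000000, subtraction of the median change, removal of GC and length trends in 20 bins of each, and summed rows of 1 symbol. Figures were drawn with matplotlib 3.10.9.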

Additional observations from a re-analysis of the deposited data

How the results depend on the processing

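No paired analysis was possible because each condition has 1 library. Counts and medians over the members were taken to have moved when a count changed by more than 1.5 times or a median by 0.25 or more on the log2 scale, limits chosen here. Under the 7 alternatives, 94 such values stayed within these limits and 11 moved. With a filter of 5 FPKM, which 18 members passed, 0 were 2-fold higher in JUN WT against the control and 2 in JUN WT against JUN AA. Of the 6054 genes past that filter, 458 and 438 were 2-fold higher in these comparisons. With changes centred on the median gene, members 2-fold lower in JUN WT against the control were 4. Genes 2-fold lower were then 522 of 10311, after 350 as deposited. Members 2-fold lower in JUN AA against the control, 6 as deposited, were 9 with rescaled FPKM, with ITGA1, ITGA3 and LAMB2 added. They were 4 with GC and length trends removed. Genes 2-fold lower were 389 of 10311 as deposited, 957 of 10311 with rescaled FPKM and 281 of 9393 with trends removed. With rescaled FPKM, the median in JUN AA against the control was -0.85 and in JUN WT against JUN AA 0.84, with 9 members 2-fold higher in the latter. That rescaling also moved the median of all genes, to -0.29 and 0.47 in these comparisons. Genes 2-fold higher in JUN WT against JUN AA were then 1770 of 10311, after 686 as deposited. With GC and length trends removed, 1 member was 2-fold higher in JUN AA against the control, where 279 of 9393 genes were. Members 2-fold higher in iCAFs against MRC5 were 2 with a pseudocount of 0.1, rescaled FPKM, centred changes and trends removed, NID1 being the second. Genes 2-fold higher were then 318, 295 and 247 of 11780 and 224 of 10648, in that order, after 228 as deposited. Of the differences of single members named in full, none that passed 2-fold changed sign. Over all genes, the share of higher genes among those 2-fold changed in JUN AA against the control was 58.4% as deposited and 26.1% with rescaled FPKM, and in JUN WT against the control it was 67.1% and 45.5% with centred changes. In iCAFs+JNKi against iCAFs it was 53.3% as deposited and 64.0% with centred changes. In JUN WT against JUN AA it was 54.3% as deposited and 82.9% with rescaled FPKM, but 33.3% with centred changes and 43.2% with trends removed. The number of reads is unknown, which limits members under about 1 FPKM most.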
